A study of Mus musculus with 6 samples.

Results

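The secreted and membrane-bound metalloproteinases that cut extracellular matrix and cell-surface proteins, together with their inhibitors, were examined in C2C12 cells carrying a hairpin against Gaa. The members were the rows of the count table with 1 of 34 chosen gene symbols, of 24421 rows in all. They comprised 12 matrix metalloproteinase (MMP) genes, 8 ADAM genes, 9 ADAMTS genes and 5 inhibitor genes. All 34 were present in the table, and 29 had enough counts to be tested among 11801 tested genes. Mmp9, Mmp23, Mmp24, Adam23 and Timp4 were too low.

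C2C12 is a mouse myoblast line that fuses into myotubes in low-serum medium. One group (shGAA, n = 3 libraries) received a lentivirus with a short hairpin RNA against Gaa, the lysosomal acid alpha-glucosidase that releases glucose from glycogen. The other (shScrambled, n = 3 libraries) received a lentivirus with a scrambled hairpin. Puromycin selection and differentiation (2% horse serum, glucose at 4.5 g/l) were the same for both, and the word Fed in all titles is not explained. Neither the number of hairpins nor the origin of the libraries (separate infections, cultures or neither) is stated in the labels, so the p-values measure the spread among libraries alone, and that spread may be technical. In bulk RNA, fewer cells of a kind and less RNA per cell cannot be told apart.

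MMPs are made as inactive proenzymes and cut collagens, basement membrane and other matrix proteins. Most are secreted, and the membrane-type MMPs are anchored at the cell surface. ADAM proteases are transmembrane proteins, and several shed the outer part of growth factor precursors, Notch receptors and adhesion molecules. ADAMTS proteases are secreted and bind the matrix, and a subgroup of them cuts the proteoglycans versican and aggrecan. The tissue inhibitors of metalloproteinases (TIMPs) block the active sites of these enzymes, and RECK is a membrane-anchored inhibitor. In muscle these families are known for matrix turnover around fusing and regenerating fibres.

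The upstream sequences of 5 members are shown because they hold the letters of AP-1 sites, long studied in MMP genes, or of PEA3 sites, which bind ETS factors. Sequences are RefSeq's, on GRCm38.p6, and run 5′ to 3′ on the gene's strand. Mmp13, Mmp3 and Mmp10 lie in this order on the plus strand of chromosome 9, with 162 kb between Mmp13 and Mmp3 and 46.4 kb between Mmp3 and Mmp10. Capitals mark TGAGTCA or TGACTCA in the first 4 sequences and AGGAAG in the fifth. The Mmp3 stretch is chr9:7445722-7445821, that of Mmp10 is chr9:7502242-7502341 and that of Mmp13 is chr9:7272414-7272513. The Adam19 stretch is chr11:46055824-46055943 and the Timp1 stretch is chrX:20869986-20870105, all on the plus strand.
Mmp3: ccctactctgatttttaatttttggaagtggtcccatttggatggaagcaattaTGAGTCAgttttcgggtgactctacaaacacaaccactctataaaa
Mmp10: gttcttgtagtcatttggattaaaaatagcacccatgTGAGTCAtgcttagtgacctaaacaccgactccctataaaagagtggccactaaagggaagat
Mmp13: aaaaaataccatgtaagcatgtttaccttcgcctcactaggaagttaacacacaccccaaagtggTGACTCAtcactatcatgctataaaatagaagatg
Adam19: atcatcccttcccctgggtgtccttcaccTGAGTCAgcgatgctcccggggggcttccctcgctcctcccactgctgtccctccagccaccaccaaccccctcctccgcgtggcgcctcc
Timp1: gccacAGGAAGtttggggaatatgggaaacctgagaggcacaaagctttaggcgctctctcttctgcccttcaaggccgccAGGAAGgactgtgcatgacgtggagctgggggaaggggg

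Of the 34 members, 23 had an upstream sequence in the table, with 26 start sites among them. In the 250 bases before the start, searched on both strands, TGACTCA or TGAGTCA occurred upstream of 4 of these 26 sites (15.4%), against 4.46% of 32851 sites of all genes. The 4 genes were Mmp3, Mmp10, Mmp13 and Adam19. AGGAAG occurred upstream of 10 sites (38.5%), against 29.5% of all, and the GC box GGGCGG upstream of 15 (57.7%), against 32.7% of all. No AP-1 match overlapped an AGGAAG match. A match describes these letters only.

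Libraries held 9224038 to 10430270 counts in shGAA and 9475245 to 9918142 in shScrambled. The members together took 0.660% to 0.677% of the counts in shGAA and 0.585% to 0.603% in shScrambled. Gaa, the targeted gene, had 469, 445 and 552 counts in shGAA and 1033, 1158 and 1119 in shScrambled, so 42.1% of its control level was left (log2 fold change -1.25 ± 0.07, SE, edgeR adjusted p = 1.09e-09). The library shScrambled 1 stood apart from its group: its chi-square per degree of freedom against shScrambled 2 and 3 was 6.08 and 5.49, while that of shScrambled 2 against 3 was 2.30 and those within shGAA were 1.98 to 2.62. Over the 29 tested members, shScrambled 1 differed from the mean of the other shScrambled libraries by a median absolute log2 difference of 0.17, against 0.11 over all tested genes.

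More of the chosen protease genes rose than fell in shGAA, while TIMP genes moved in opposite directions. Of the 29 tested members, 12 rose and 4 fell at an adjusted p under 0.05, and 13 did not pass. The called share was 55.2%, against 38.2% of all tested genes, of which 18.5% were higher and 19.7% lower in shGAA. The members were chosen with earlier results of these data known, so the shares given here and by family describe this choice only. Mmp28, Adamts14 and Adamts6, of the same families but not chosen, were called lower. The median log2 fold change of the tested members was 0.29, against 0.01 over all tested genes. Groups did not overlap, with shGAA above, in 14 of the 29 tested members, against 24.7% of all tested genes. With shGAA below this held for 6 of the 29, against 24.9% of all tested genes, so the members' share was no higher. In either direction it held for 20 of the 29, against 49.6% of all tested genes. The higher members were Mmp2, Mmp10, Mmp11, Mmp14, Mmp15, Mmp16, Adam12, Adam19, Adamts1, Adamts5, Adamts15 and Timp2, and the lower ones Mmp19, Adam8, Adam15 and Timp1. Without shScrambled 1 the counts were 15 higher and 5 lower, and over all genes tested in that fit they were 2378 higher and 2485 lower of 11894, against 2182 and 2330 of 11801 with it. The added lower member was Mmp24, which is below the filter with all libraries and was kept in that fit only through its shScrambled counts. Fold changes below are log2 of shGAA over shScrambled with their standard error, and levels are CPM, the counts scaled to a common library size by TMM, as mean ± SD of 3 libraries.

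**Figure D1:**
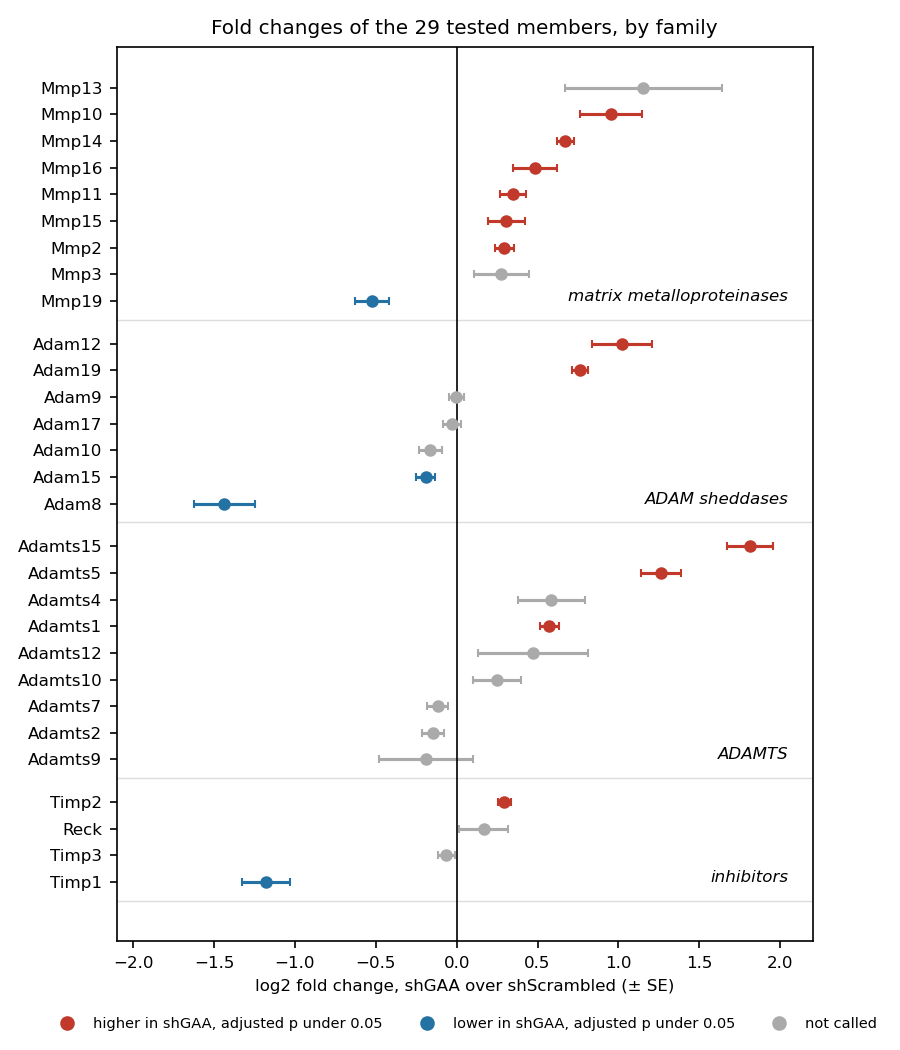
Log2 fold change of shGAA over shScrambled (x axis, bars ± SE) for the 29 tested members, grouped by family (rows), red where called higher, blue where called lower and grey where not called. Adamts15 (1.81) and Adamts5 (1.26) had the highest values of the called members, and Adam8 (-1.44) and Timp1 (-1.18) the lowest.

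Of the MMP genes, 9 were tested: 6 rose, 1 fell and 2 did not pass, with a median log2 fold change of 0.35. The called share was 77.8%, against 38.2% of all tested genes, of which 18.5% were higher and 19.7% lower. The summed level of the 12 genes was 1507 to 1717 CPM in shGAA and 1157 to 1270 CPM in shScrambled. Mmp14 encodes a membrane-type MMP that cuts collagen and activates the proenzyme of MMP2. It stood at 411, 440 and 406 CPM in shGAA 1 to 3 and at 245, 269 and 275 CPM in shScrambled 1 to 3. Every shGAA library lay well above every shScrambled library. The rise was 0.67 ± 0.05 on the log2 scale, or 1.59-fold (adjusted p = 4.96e-08).

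Mmp2 encodes gelatinase A, which degrades type IV collagen and gelatin, and was the most abundant MMP transcript per length. It had 973, 1146 and 1011 CPM in shGAA and 807, 860 and 885 CPM in shScrambled. The groups were close but did not overlap, and the rise was 0.29 ± 0.06, or 1.23-fold (adjusted p = 0.00107). Per kilobase of exon, Mmp2 had 309 ± 27.0 CPM in shGAA and 252 ± 11.9 in shScrambled, which was 72.7% to 74.6% of the family's summed level per kilobase in shGAA and 76.5% to 76.9% in shScrambled. Mmp14 followed with 16.2% to 17.4% in shGAA and 13.2% to 13.6% in shScrambled. All other MMP genes were lower per length than these in both groups.

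The other membrane-type genes were at much lower levels. Mmp16 had 13.2, 17.0 and 17.1 CPM in shGAA and 9.97, 10.9 and 13.0 CPM in shScrambled, so that its lowest shGAA library nearly met its highest shScrambled library (0.48 ± 0.14, adjusted p = 0.0105). Mmp15 had 21.7, 21.3 and 22.7 CPM in shGAA and 20.9, 15.3 and 17.0 CPM in shScrambled, with shScrambled 1 just under the shGAA libraries. Its rise of 0.31 ± 0.11 (adjusted p = 0.0436) was the least certain of the called members and did not pass in DESeq2 (adjusted p = 0.0992), in the non-robust fit (0.0518) or without any 1 of shGAA 1, 2 or 3 or shScrambled 2 or 3 (0.0802 to 0.183), with a range of 0.00161 to 0.183 over 14 alternatives. Mmp16 did not pass without shGAA 2 (adjusted p = 0.0536) or without shGAA 3 (0.0575), with a range of 0.00148 to 0.0575. Mmp24 was below the filter, with 21 counts summed over shGAA and 38 summed over shScrambled. In GENCODE M21, 13.6% of its exonic bases overlap BC029722 on the opposite strand, so some reads of the overlap may belong to that gene. BC029722 was far more abundant and lower in shGAA, at 51.25 ± 3.42 CPM against 81.6 ± 8.07 in shScrambled.

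Mmp10 and Mmp3 encode stromelysins, which cut proteoglycans, laminin and other noncollagenous matrix. Mmp10 had 9.50, 9.82 and 7.05 CPM in shGAA and 3.39, 5.26 and 4.91 CPM in shScrambled. All shGAA libraries were above all shScrambled libraries, and the rise was 0.95 ± 0.19, or 1.94-fold (adjusted p = 0.000836). Mmp3, its neighbour with the same AP-1 letters upstream, had 7.87, 11.2 and 8.74 CPM in shGAA and 9.25, 6.66 and 6.94 CPM in shScrambled. The groups overlapped through shScrambled 1, and its 0.28 ± 0.17 did not pass (adjusted p = 0.217). Without shScrambled 1 it was 0.44 (adjusted p = 0.0365), with a range of 0.0365 to 0.646 over 14 alternatives. Of the 50-base stretches in their transcripts, 8.37% of those of Mmp10 occurred in Mmp3, so some reads may have been left out or counted for the wrong one of the pair.

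Mmp13, which encodes a collagenase of the same chromosome 9 cluster, was near the limit of detection. It had 13, 17 and 10 counts in shGAA and 11, 3 and 3 counts in shScrambled, which overlapped. Its fold change of 1.15 ± 0.48 did not pass (adjusted p = 0.0696), and it passed without shScrambled 1, at 2.02 (adjusted p = 0.00366), in limma-voom (0.0360) and without the filter (0.0432), with a range of 0.00366 to 0.248. Without shScrambled 1, all of the 3 cluster members tested passed. With any other single library left out, neither Mmp3 nor Mmp13 passed.

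Mmp11 encodes a stromelysin with little activity towards the main matrix proteins. It had 52.2, 51.9 and 44.7 CPM in shGAA and 35.9, 39.7 and 41.2 CPM in shScrambled, without overlap (0.35 ± 0.08, adjusted p = 0.00253). Mmp19 was the only chosen MMP gene that fell. Mmp28, tested but not among the chosen genes, was lower too, as given below. Mmp19 had 16.04, 16.8 and 14.7 CPM in shGAA and 22.8, 21.1 and 24.3 CPM in shScrambled. Its shGAA level was 69.5% of the shScrambled level (-0.53 ± 0.10, adjusted p = 0.000742). In GENCODE M21, 28.3% of its exonic bases overlap Gm47093 and Tmem198b on the opposite strand. The symbol Gm47093 was not among the genes counted. Tmem198b was lower as well, at 24.7 ± 0.675 CPM in shGAA and 32.3 ± 1.98 in shScrambled. Whether strand was used in counting is not given in the sources used here, so reads of the overlap may belong to a gene of either strand. Mmp9, the other gelatinase gene, had 2 counts over shGAA and 4 over shScrambled, and Mmp23 had 8 and 7.

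**Figure D2:**
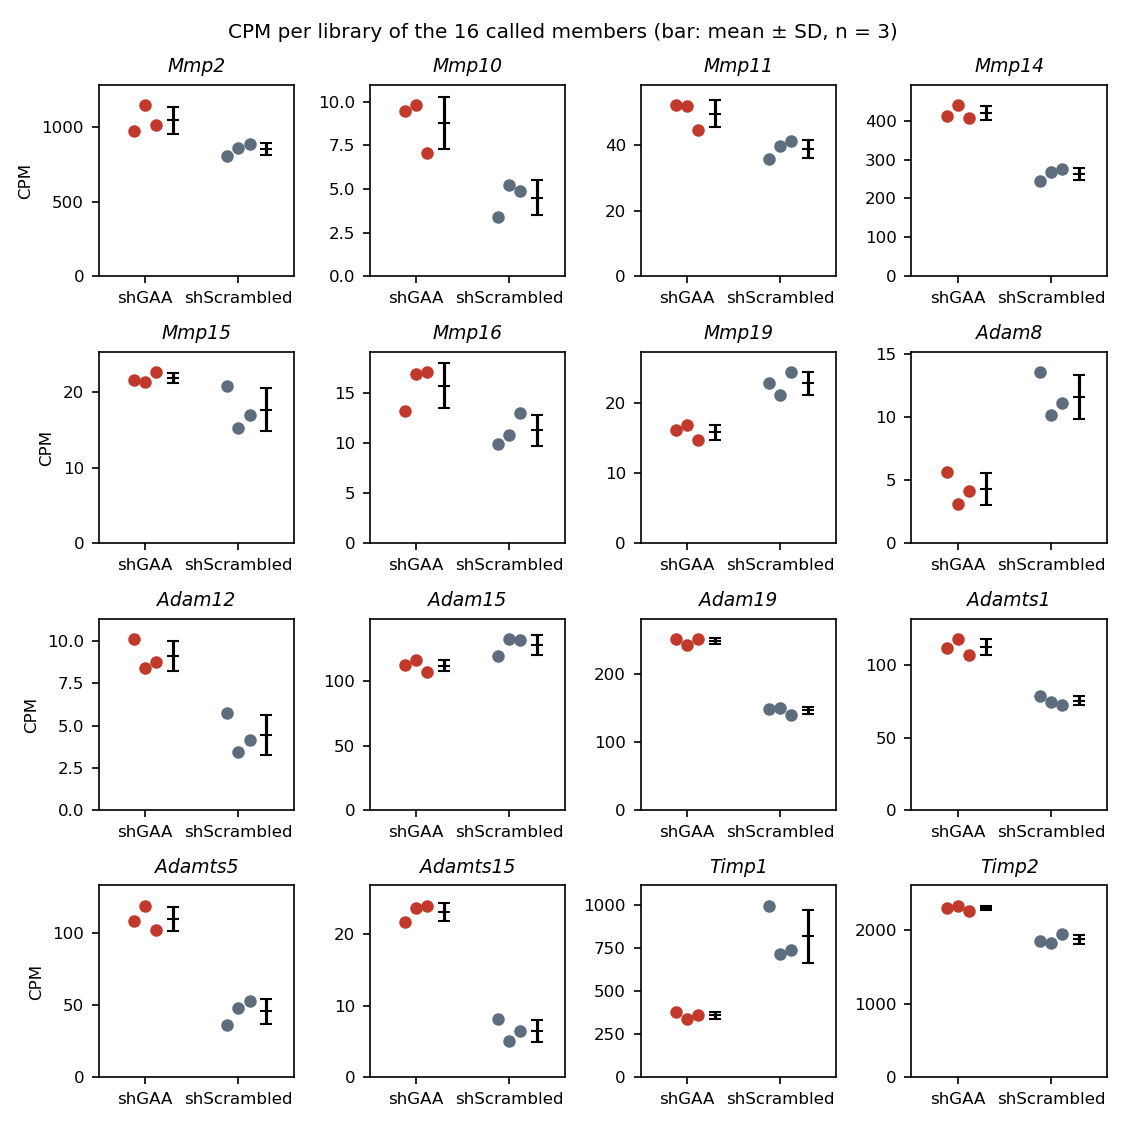
CPM (y axis, from 0) in each of the 3 shGAA and 3 shScrambled libraries (points) of the 16 called members, with mean ± SD beside them. Timp1 lay at 339 to 379 CPM in shGAA and at 717 to 992 CPM in shScrambled, while for Mmp15 the groups nearly touch.

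In the ADAM family Adam12 and Adam19 rose, Adam8 and Adam15 fell, and Adam9, Adam10 and Adam17 did not pass. Among the 7 that were tested there were 2 higher and 2 lower calls and 3 without a call, with a median log2 fold change of -0.03. The called share was 57.1%, against 38.2% of all tested genes, of which 18.5% were higher and 19.7% lower. Adam19 (meltrin beta), which sheds neuregulin, had 252, 243 and 252 CPM in shGAA and 149, 151 and 141 CPM in shScrambled. The libraries of each group lay close together and the groups far apart, and the rise was 0.76 ± 0.05, or 1.69-fold (adjusted p = 6.66e-09). Per kilobase of exon, Adam19 took 20.8% to 21.4% of the family's summed level in shGAA and ranked after Adam9. In shScrambled its 20.7 ± 0.788 CPM per kilobase lay within the spread of that of Adam15, 20.9 ± 1.23. In GENCODE M21, Gm16033 and Gm16034 overlap 15% of the exonic bases of Adam19 on the opposite strand. Neither symbol was among the genes counted.

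Adam12 (meltrin alpha), assigned to myoblast fusion and muscle regeneration in the mouse, was much less abundant. It had 10.1, 8.43 and 8.74 CPM in shGAA and 5.75, 3.44 and 4.16 CPM in shScrambled. The groups did not overlap, and the rise was 1.02 ± 0.18, or 2.03-fold (adjusted p = 0.000322). Of its 50-base stretches, 3.03% occurred in transcripts of other genes.

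Adam8, best known from leukocytes and also described in regenerating muscle, was lower. It had 5.62, 3.09 and 4.14 CPM in shGAA and 13.6, 10.2 and 11.1 CPM in shScrambled. The highest shGAA library was below the lowest shScrambled library, and 37.0% of the shScrambled level was left (-1.44 ± 0.19, adjusted p = 1.70e-05). The 7 leukocyte markers summed to 1.598 to 2.86 CPM in shGAA and 2.90 to 4.01 CPM in shScrambled, most of it Cd68, while Itgam and Cd3e were at 0 in all libraries and Ptprc had 0 counts over shGAA and at most 1 per shScrambled library. Their part in the result was not tested.

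Adam10 and Adam17 encode the main sheddases of Notch receptors and of tumour necrosis factor and EGF-family ligands. Adam10 had 136, 145 and 160 CPM in shGAA and 182, 157 and 156 CPM in shScrambled, which overlapped (-0.16 ± 0.07, adjusted p = 0.0834). It passed without shGAA 3 (adjusted p = 0.0265) and without the filter (0.0162), with a range of 0.0162 to 0.295. Adam17 had 122 ± 2.72 CPM in shGAA and 124 ± 6.41 in shScrambled (-0.03 ± 0.05, adjusted p = 0.693). Adam9 (meltrin gamma), the most abundant ADAM transcript per length, had 266 ± 5.78 CPM in shGAA and 266 ± 8.64 in shScrambled (adjusted p = 0.960). Adam15, a disintegrin of adherens junctions, had 113, 117 and 108 CPM in shGAA and 120, 133 and 132 CPM in shScrambled. Its small fall of 0.19 ± 0.06 on the log2 scale (adjusted p = 0.0147) did not pass when scaled by library size alone (adjusted p = 0.0559) or without shGAA 3, shScrambled 2 or shScrambled 3 (0.0754, 0.0586 and 0.0679), with a range of 0.000458 to 0.0754. The gene 4731419I09Rik, a symbol not among the genes counted, overlaps 20.6% of its exonic bases on the opposite strand. Adam23, which lacks a catalytic site, had 6 counts over shGAA and 12 over shScrambled.

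The largest rises among the called members were those of Adamts15 and Adamts5, and the third ADAMTS gene that rose, Adamts1, also encodes a proteoglycan-cutting enzyme. Among the 9 that were tested there were 3 higher and 0 lower calls and 6 without a call, with a median of 0.47. The called share was 33.3%, below the 38.2% of all tested genes, and 19.7% of all tested genes were lower. In edgeR the count of lower ADAMTS members at an unadjusted p under 0.05 was 0 too, but Adamts2 (0.0533) and Adamts7 (0.0727) were just above it. At an adjusted p under 0.05 the count was 0 in each of the 14 alternatives, DESeq2 and limma-voom included. All of these draw on the same libraries. Adamts14 and Adamts6, tested but not among the chosen 9, were lower, as given below. The summed level of the family was 442 to 480 CPM in shGAA and 308 to 334 CPM in shScrambled.

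Adamts15 had 21.8, 23.7 and 24.0 CPM in shGAA and 8.12, 5.05 and 6.51 CPM in shScrambled. The lowest shGAA library was far above the highest shScrambled library, and the rise of 1.81 ± 0.14, or 3.52-fold (adjusted p = 5.06e-08), was the largest of the 29 members. Adamts5, an aggrecanase gene, had 109, 119 and 102 CPM in shGAA and 36.5, 48.1 and 53.1 CPM in shScrambled, a rise of 1.26 ± 0.12, or 2.40-fold (adjusted p = 0.000108). In mouse myoblasts, cutting of versican by ADAMTS5 and ADAMTS15 has been assigned a part in fusion. The versican gene Vcan, named here after its values were seen, had 472, 544 and 578 CPM in shGAA and 746, 615 and 626 CPM in shScrambled, without overlap (-0.32 ± 0.10, adjusted p = 0.0396).

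Adamts1, next to Adamts5 on chromosome 16 with 53.1 kb between them, had 112, 118 and 108 CPM in shGAA and 78.9, 74.9 and 72.9 CPM in shScrambled. It rose by 0.57 ± 0.06, or 1.49-fold (adjusted p = 8.84e-07), in all shGAA libraries. Adamts4, another aggrecanase gene, depended on 1 library. It had 98.4, 102 and 90.1 CPM in shGAA and 85.2, 54.0 and 54.3 CPM in shScrambled. The groups did not overlap, but shScrambled 1 lay near the shGAA level, and 0.58 ± 0.21 did not pass (adjusted p = 0.0904). Without shScrambled 1 it was 0.84 (adjusted p = 8.79e-15), and it also passed in DESeq2 (0.0348) and in the non-robust fit (0.00371), with a range of 8.79e-15 to 0.209. Counted together with it, 4 of 9 ADAMTS genes rose without shScrambled 1.

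The remaining 5 ADAMTS genes did not pass. Adamts2, a procollagen N-proteinase gene, had 44.1 ± 2.42 CPM in shGAA and 48.7 ± 2.06 in shScrambled (-0.15 ± 0.07, adjusted p = 0.112). Adamts7, whose product cuts cartilage oligomeric matrix protein, had 60.9 ± 2.03 CPM in shGAA and 66.1 ± 2.89 in shScrambled (-0.12 ± 0.06, adjusted p = 0.142). In both, every shGAA library was below every shScrambled library. Adamts10, linked to fibrillin microfibrils, had 7.69 ± 0.420 CPM in shGAA and 6.48 ± 0.141 in shScrambled, without overlap (0.25 ± 0.15, adjusted p = 0.203). Adamts9, which also encodes a versican- and aggrecan-cutting protease, had 2.27 ± 0.832 CPM in shGAA and 2.60 ± 0.432 in shScrambled (-0.19 ± 0.29, adjusted p = 0.637). Adamts12 had 1.98 ± 0.778 CPM in shGAA and 1.45 ± 0.275 in shScrambled (0.47 ± 0.34, adjusted p = 0.291), and the groups overlapped in both genes.

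Timp1 fell and Timp2 rose, while Timp3 and Reck did not pass. Timp1 encodes a secreted inhibitor that acts weakly on membrane-type MMPs. It had 379, 339 and 362 CPM in shGAA and 992, 717 and 739 CPM in shScrambled. Each shGAA library had about the same level and was below all shScrambled libraries, of which shScrambled 1 was the highest. The fall was 1.18 ± 0.15 on the log2 scale (adjusted p = 0.00312), which left 44.1% of the shScrambled level, and over 14 alternatives it was between -1.27 and -1.02 with adjusted p up to 0.0215. Timp1 lies on chromosome X at 20870166 to 20874735 (GRCm38), on the strand opposite to Syn1, with no overlap of their exons in GENCODE M21.

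Timp2 encodes an inhibitor that also takes part, with MMP14, in activating the proenzyme of MMP2. It was the most abundant member by CPM, with 2303, 2326 and 2265 in shGAA and 1851, 1827 and 1947 in shScrambled. The values were even within both groups, and the rise was 0.29 ± 0.04, or 1.23-fold (adjusted p = 2.45e-05). The transcripts of Mmp14, Mmp2 and Timp2, whose products are known to act in a complex, were all higher. Timp3, whose product is bound to matrix and also blocks ADAM17 and aggrecanases, had 984, 893 and 933 CPM in shGAA and 943, 1059 and 938 CPM in shScrambled, which overlapped (-0.07 ± 0.05, adjusted p = 0.346). Syn3, which overlaps 21.3% of the exonic bases of Timp3 on the opposite strand, had 0 to 3 counts per library. Reck had 8.01 ± 1.13 CPM in shGAA and 7.14 ± 0.328 in shScrambled (adjusted p = 0.421), and Timp4 had 5 counts over each group.

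By CPM, the summed inhibitors overlapped between the groups, at 3565 to 3675 in shGAA and 3610 to 3793 in shScrambled. Divided by exonic length, which gives the short Timp1 transcript more weight, they did not, at 1090 to 1140 CPM per kilobase in shGAA and 1408 to 1710 in shScrambled. Timp1 made up 35.1% to 37.5% of the summed level per kilobase of Timp1, Timp2 and Timp3 in shGAA and 57.4% to 65.4% in shScrambled. Timp2 was the most abundant inhibitor per length in all shGAA libraries (590 ± 7.96 CPM per kilobase, against 406 ± 22.3 for Timp1), whereas in all shScrambled libraries it was Timp1 (919 ± 172, against 481 ± 16.2 for Timp2). By CPM the order was Timp2, Timp3, Timp1 in the means of both groups. Lengths are those of all annotated exons together and not of the isoforms these cells use.

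**Figure D3:**
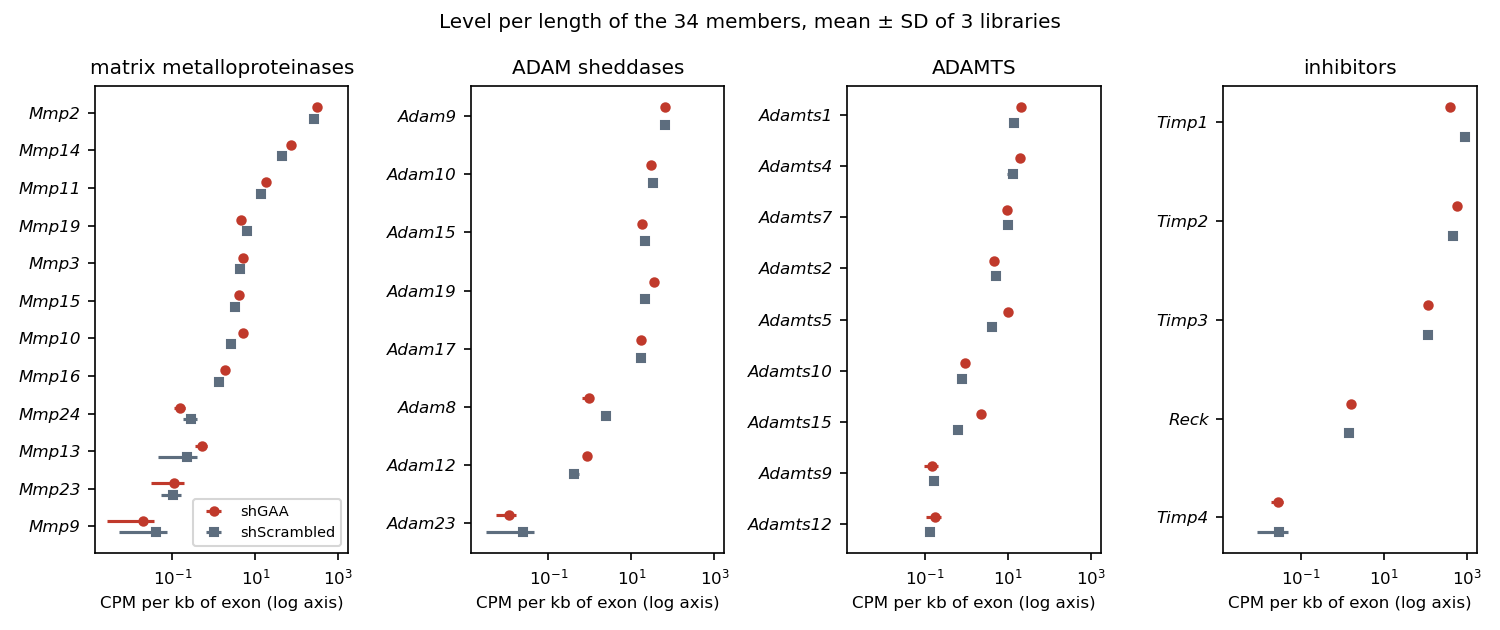
CPM per kilobase of exon (x axis, log scale, mean ± SD of 3 libraries) of the 34 members in shGAA (circles) and shScrambled (squares), a panel for each family, sorted by the shScrambled level. Timp2 exceeds Timp1 in shGAA and Timp1 exceeds Timp2 in shScrambled, and the 5 untested genes lie at or below 0.287.

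Genes that act on these proteases were more often lower than higher. Of 15 tested genes for activation, trafficking and clearance, 8 fell, 1 rose and 6 did not pass, with a median of -0.18. The called share was 60%, against 38.2% of all tested genes, of which 18.5% were higher and 19.7% lower. Furin, the convertase that removes the propeptide of membrane-type MMPs and of ADAM and ADAMTS proteases, had 100.2 ± 5.22 CPM in shGAA and 135 ± 12.04 in shScrambled (-0.43 ± 0.07, adjusted p = 6.60e-05). Tspan15, a tetraspanin that escorts ADAM10, had 190 ± 9.10 CPM in shGAA and 226 ± 6.80 in shScrambled (-0.25 ± 0.05, adjusted p = 0.000874). Sh3pxd2b, a scaffold of podosomes where MMPs are concentrated, rose by 0.36 ± 0.07 (adjusted p = 0.00140).

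Among 18 tested AP-1, ETS and RUNX factors and other regulators of MMP genes, 8 fell, 2 rose and 8 did not pass, with a median of -0.16. The called share was 55.6%, against 38.2% of all tested genes, of which 18.5% were higher and 19.7% lower. The AP-1 subunits diverged. Fosl1 had 81.9, 78.4 and 82.1 CPM in shGAA and 155, 151 and 134 CPM in shScrambled (-0.86 ± 0.06, adjusted p = 1.87e-08). Jun had 318, 326 and 305 CPM in shGAA and 245, 247 and 250 CPM in shScrambled (0.35 ± 0.05, adjusted p = 1.25e-05). Etv4, an ETS factor of the PEA3 group, was at 66.7% of its shScrambled level (-0.59 ± 0.07, adjusted p = 3.13e-06).

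The substrates were mixed. Of 29 tested genes for proteins shed by ADAMs, 6 rose, 11 fell and 12 did not pass (median -0.09). The called share was 58.6%, against 38.2% of all tested genes, of which 18.5% were higher and 19.7% lower. Sdc4, a cell-surface heparan sulfate proteoglycan, fell by 1.03 ± 0.06 on the log2 scale (adjusted p = 2.38e-08) and Notch1 by 0.84 ± 0.07 (adjusted p = 5.11e-08), while Notch2 rose by 0.48 ± 0.05 (adjusted p = 1.16e-06). Of 23 tested matrix substrates, 9 rose, 10 fell and 4 did not pass (median 0.03), a called share of 82.6%. The type I collagen genes Col1a1 and Col1a2 fell by 1.10 ± 0.10 and 0.47 ± 0.05 on the log2 scale, and Nid1, of the basement membrane, by 0.56 ± 0.05 (adjusted p = 1.96e-07, 2.29e-06 and 1.76e-07). Other fibrillar collagen genes, named after their values were seen, did not follow: Col3a1 had 3413 ± 50.6 CPM in shGAA and 2759 ± 34.9 in shScrambled (0.31 ± 0.04, adjusted p = 7.46e-06). Col5a2 rose by 0.25 ± 0.04 (adjusted p = 0.000163), and Col5a1 was at 0.03 ± 0.05 (adjusted p = 0.633).

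Other members of the same families were mostly not expressed or low. Of 11 further MMP genes, 10 were below the filter, 6 of them at 0 in all libraries, and Mmp28 fell by 0.36 ± 0.10 (adjusted p = 0.0111). Of 26 further ADAM genes, 24 were below the filter, 16 of them at 0, and the 2 tested did not pass. Of 9 tested further ADAMTS and ADAMTS-like genes, 4 fell, 1 rose and 4 did not pass. The called share was 55.6%, against 38.2% of all tested genes. Adamts14, a second procollagen N-proteinase gene, had 80.2, 73.2 and 71.3 CPM in shGAA and 117, 117 and 114 CPM in shScrambled (-0.63 ± 0.06, adjusted p = 2.85e-07). Adamtsl4 fell by 0.46 ± 0.07 (adjusted p = 9.72e-05) and Adamts6 by 0.26 ± 0.06 (adjusted p = 0.00351).

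**Figure D4:**
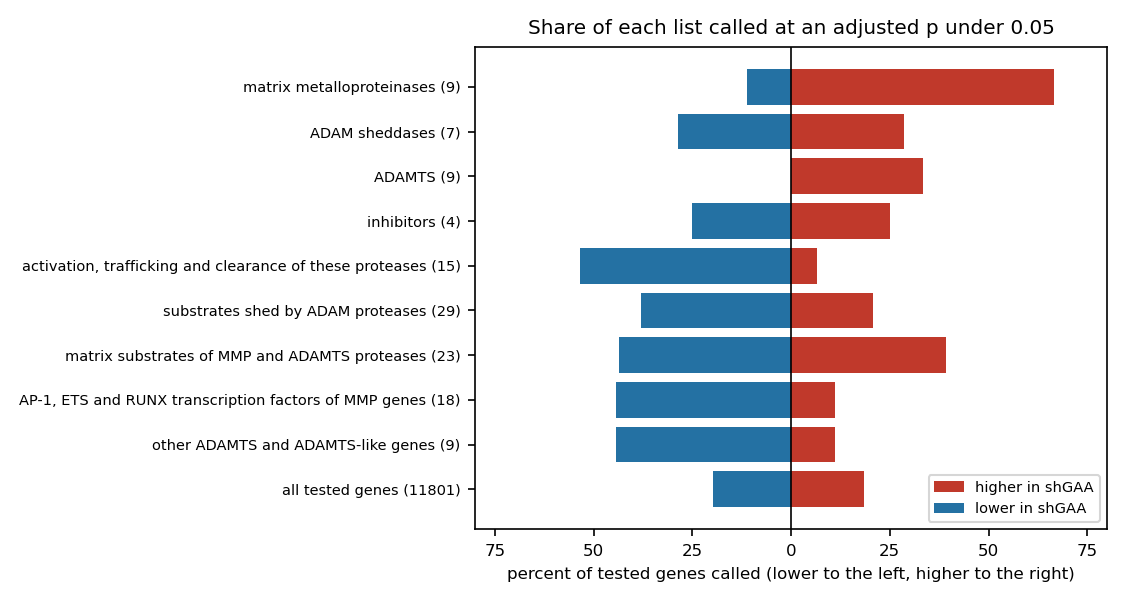
Percent of tested genes called higher (right) or lower (left) in shGAA at an adjusted p under 0.05, for each family or list (rows, number tested in brackets) and for all tested genes. The MMP and ADAMTS families extend further to the right than all tested genes, at 18.5%. The activation, transcription factor and other ADAMTS lists extend further to the left, at 19.7%. The ADAM family, the inhibitors and the substrate lists extend further on each side.

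Transcripts of muscle differentiation markers differed between the groups as well. All 8 markers of differentiating muscle had fold changes below 0, against 49.2% of all tested genes. Of the 8, 6 fell, against 19.7% of all tested genes. Their summed level was 1974 to 2161 CPM in shGAA and 2682 to 2948 in shScrambled. Des (desmin) had 1664 ± 82.0 CPM in shGAA and 2047 ± 37.2 in shScrambled (-0.30 ± 0.04, adjusted p = 4.31e-05). Acta1 (skeletal muscle actin) fell by 0.71 ± 0.08 on the log2 scale (adjusted p = 0.000133), and Ckm (muscle creatine kinase) by 0.94 ± 0.16 (adjusted p = 0.000229). The myoblast markers Myod1, Myf5 and Pax7 summed to 132 to 143 CPM in shGAA and 114 to 117 in shScrambled, with Myf5 called higher. The 5 fibroblast markers summed to 47.9 to 58.2 CPM in shGAA and 42.6 to 46.8 in shScrambled. Of these, Lum was called higher (adjusted p = 0.0405), though its groups overlapped. The other marker lists, of endothelium, adipocytes, and osteoblasts and chondrocytes, reached at most 5.23 CPM per library. Tek was called higher in shGAA and Cdh5 lower, though the groups of Cdh5 overlapped, at 4 to 24 counts per library. The part of differentiation state in the protease and inhibitor values was not tested.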

How the data were processed

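RNA of C2C12 cells was sequenced in 6 libraries. Raw counts of reads, 1 row for each gene symbol, were deposited by the authors as a single table. The submitters' processing notes name mm10, HISAT2 2.1.0, Subread, FastQC and edgeR; the annotation, the strand setting and the handling of reads mapping to several genes were not given in the sources used here. Low genes were removed with filterByExpr, given the groups. Libraries were scaled by TMM (factors 0.980 to 1.02), and the quasi-likelihood F-test of edgeR was used (version 4.0.16, with limma 3.58.1 and R 4.3.3, robust, with the group as the sole term). P-values were adjusted by Benjamini-Hochberg over 11801 genes, and genes under 0.05 were called. The code was tested on simulated data with known changes. In the single draw made, the share of false calls was above the nominal 0.05, so calls near the threshold are less certain. Alternatives were other scalings, no filter, DESeq2 1.42.0, limma-voom, a non-robust fit, a replicate block and leaving out each library. Positions, exonic lengths, exon overlaps and shared 50-base stretches come from GENCODE M21, which matched all 34 members. Mymk was read from the row under its older symbol.

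All 34 members and up to 3 called genes with the smallest adjusted p of each other list, at least 1 CPM on average, were named. The members and lists were chosen with earlier results of these data known. The median SE was 0.08 on the log2 scale over all tested genes, and 0.48 for Mmp13, with 10 to 17 counts per library in shGAA and 3 to 11 in shScrambled.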

Additional observations from a re-analysis of the deposited data

How the results depend on the processing

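Of 406 fold changes of the 29 tested members under 14 alternatives, 375 kept direction and side of the threshold, 13 lost their call (Mmp15, Mmp16, Adam15), 10 gained one (Mmp3, Mmp13, Adam10, Adamts4) and 8 changed sign, in Adam9, Adam17 and Adamts9, which passed in none of them. Scaled by library size alone, Adam9 was at 0.044 and Adam17 at 0.017, and with upper quartile scaling Adam9 was at 0.0022. Leaving out 1 library each moved Adam9 between -0.020 and 0.023, Adam17 between -0.069 and 0.0054 and Adamts9 between -0.42 and 0.077. Members called were 10 to 15 higher and 3 to 5 lower without 1 library. The 2 lower ADAM genes became 1 when scaled by library size alone, 3 without the filter and 1 to 2 without 1 library. The 1 lower MMP member became 1 to 2, since without shScrambled 1 Mmp24 was tested and passed (-1.17, adjusted p = 0.0265, range 0.0265 to 0.2996 where it was tested). Mmp24 was kept in that fit only through its higher group, with 13 and 17 counts in shScrambled 2 and 3. In shGAA it had 8, 8 and 5 counts. Its call there is therefore no support for a fall. Over the whole table, 2182 genes were higher and 2330 lower (48.4% higher), against 2809 and 1872 (60.0% higher) under library size alone. Same-numbered libraries did not deviate together (correlations of -0.04, 0.06 and -0.02). With 3 libraries per group, these correlations cannot show whether the numbers pair the libraries. The replicate block gave 2037 higher and 2197 lower genes. It gave 13 higher and 4 lower members, the added one being Adamts4 (0.61, adjusted p = 0.0148). Mmp13, with 3 to 17 counts per library, had the largest SE of the tested members (0.48); the part of depth in it was not tested.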

Other observations

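Ligands of the EGF receptor family, which ADAM proteases release from the cell surface, did not move alike; the genes named were picked from the substrate list after their values were seen. Hbegf (heparin-binding EGF-like growth factor) had 40.6, 36.8 and 33.8 CPM in shGAA and 80.5, 66.2 and 57.6 CPM in shScrambled (-0.88 ± 0.12, edgeR adjusted p = 0.000244). Areg (amphiregulin) had 14.3 ± 1.26 CPM in shGAA and 28.3 ± 6.41 in shScrambled (-0.99 ± 0.15, adjusted p = 0.000146), and Btc (betacellulin) had 4.17 ± 0.405 CPM in shGAA and 11.8 ± 1.03 in shScrambled (-1.50 ± 0.16, adjusted p = 1.16e-06). Nrg1, which encodes neuregulin, moved the other way, with 11.5, 11.8 and 14.3 CPM in shGAA and 9.86, 5.58 and 7.37 CPM in shScrambled (0.72 ± 0.17, adjusted p = 0.00385). Its groups did not overlap, and shScrambled 1 was the nearest to shGAA. Ereg (epiregulin) had 113 ± 9.88 CPM in shGAA and 228 ± 110.4 in shScrambled and did not pass (-1.02 ± 0.39, adjusted p = 0.120), and Tgfa was too low to be tested, with 17 counts over shGAA and 14 over shScrambled.

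Also chosen after its values were seen, Mmp12 (macrophage elastase) was below the filter but had 8, 17 and 15 counts in shGAA and 2, 6 and 5 counts in shScrambled, without overlap and with no test.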
